A study of Mus musculus with 18 samples.

Results

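Lymphatic endothelial cells labelled as those of the lacteals (LECs) were set against stromal cells of the same organ (IntSCs), using the 10 of 18 libraries whose titles carry the label WT. The 4 WT LEC and 6 WT IntSC libraries were taken by title, and no measured value entered their choice. All 10 came from the small intestine of adult C57BL/6J mice whose labelled genotype is PDGFRb+-CreERT2-Tomato+, that is, a tamoxifen-inducible Cre driven by Pdgfrb together with a Tomato reporter, with no Lats1 or Lats2 allele named. The study, which gave tamoxifen intraperitoneally, names the same reporter mice as the source of its sorted cells. The remaining 8 libraries, 3 KO LEC and 5 KO IntSC, carry the same Cre and reporter with floxed Lats1 and Lats2, which encode kinases of the Hippo pathway, and serve here only as a repeat of the contrast in another genotype.

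Both cell types were sorted by flow cytometry from intestine freed of serosa, muscle layer and Peyer's patches and digested with collagenase and dispase. Magnetic beads removed cells with CD45 or CD326, and, for IntSCs, also cells with CD31. The study's sorting antibodies, against CD31, podoplanin, CD45 and TER-119, make Pecam1, Pdpn and Ptprc part of the selection, as are Epcam (CD326) through the beads and Pdgfrb through the Cre, and none of these genes is a finding. The Cre labels smooth muscle cells, fibroblasts and pericytes, so an IntSC library is a mixture of cell types, and the LEC gate does not part the lacteals from other lymphatic vessels of the gut wall. In such bulk libraries, fewer cells of a type and less RNA per cell cannot be told apart.

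A lacteal is the blind-ended lymphatic capillary in the core of each intestinal villus, where it takes up chylomicrons, the particles in which the gut exports dietary fat. Its endothelium depends on the transcription factor Prox1 for its identity and on VEGF-C, received through VEGFR3 (the product of Flt4), for its upkeep. The stroma around it deposits the collagens and elastic fibres of the villus core, contracts around the lacteal through its smooth muscle cells, and secretes Wnt, BMP and growth factor signals for the epithelium and the vessels. The comparison therefore lists which of these parts each cell type carried as RNA.

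Library totals ran from 7464241 to 10549233 reads assigned to genes in LECs and from 5361250 to 7971443 in IntSCs, and LEC libraries held reads of 11778 ± 244 genes (SD, n = 4) against 13252 ± 1000 genes in IntSCs (SD, n = 6). The precursor of ribosomal RNA, Rn45s, made up 7.02 to 12.4% of LEC reads and 13.01 to 24.4% of IntSC reads, with no overlap (exact permutation test, two-sided, p = 0.00952, which is the smallest p that 4 against 6 libraries allow). Values are counts per 1000000 reads (CPM, with totals scaled by TMM, a factor for composition), given for LECs 1 to 4 in order and for IntSCs as the lowest, the median and the highest of the 6 libraries. Log2 fold changes of LECs over IntSCs are given ± SE. Spearman correlations across genes, which are not independent replicates, ran from 0.797 to 0.816 among LEC libraries, from 0.807 to 0.916 among IntSC libraries and from 0.580 to 0.705 between the cell types. WT LEC 1 held more stromal transcripts than the other 3 LEC libraries. Over the 10 stromal identity genes, its median was 11.5% of the IntSC mean, against 3.17 to 4.69% in WT LEC 2 to 4, so folds of stromal genes are also given without it where they move by more than 1.5 times.

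The labelled cell types held their defining markers. Cldn5, the tight junction claudin of endothelium, was at 1525, 1204, 973 and 1340.4 CPM in LECs and at 5.14, 12.4 and 16.7 CPM in IntSCs. Prox1 was at 46.9, 85.3, 33.2 and 40.7 CPM in LECs, and 3 reads in all 6 IntSC libraries together left it at 0, 0.0664 and 0.169 CPM there. Flt4 was at 1459, 1438, 1289.7 and 1538 CPM in LECs and at 0.255, 4.73 and 5.58 CPM in IntSCs. Each of these 3 genes was high in every LEC library and close to absent in every IntSC library. Aqp1, a water channel, was at 11664, 11742, 12452 and 16105 CPM in LECs and at 18.4, 45.1 and 79.3 CPM in IntSCs. Col5a1, a chain of type V collagen, was at 35.7, 31.7, 25.4 and 29.2 CPM in LECs and at 539, 665 and 713 CPM in IntSCs. Pdgfrb itself was at 68.4, 28.4, 12.98 and 1.68 CPM in LECs and at 214, 464 and 668 CPM in IntSCs. The LEC libraries differed most in Pdgfrb, which was highest in WT LEC 1 and close to 0 in WT LEC 4, but no LEC library reached any IntSC library for it or for Col5a1, and without WT LEC 1 the log2 fold change of Pdgfrb was -5.05 in place of -4.09. Each of the 6 markers separated the cell types without overlap, which for Pdgfrb, through its Cre part of the sort, is a description. For each of the other 5 the difference passed (exact permutation test on log2(CPM + 1), two-sided, p = 0.00952, adjusted p = 0.0137 over 56 such tests, which include list sums not tested further here).

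**Figure D1:**
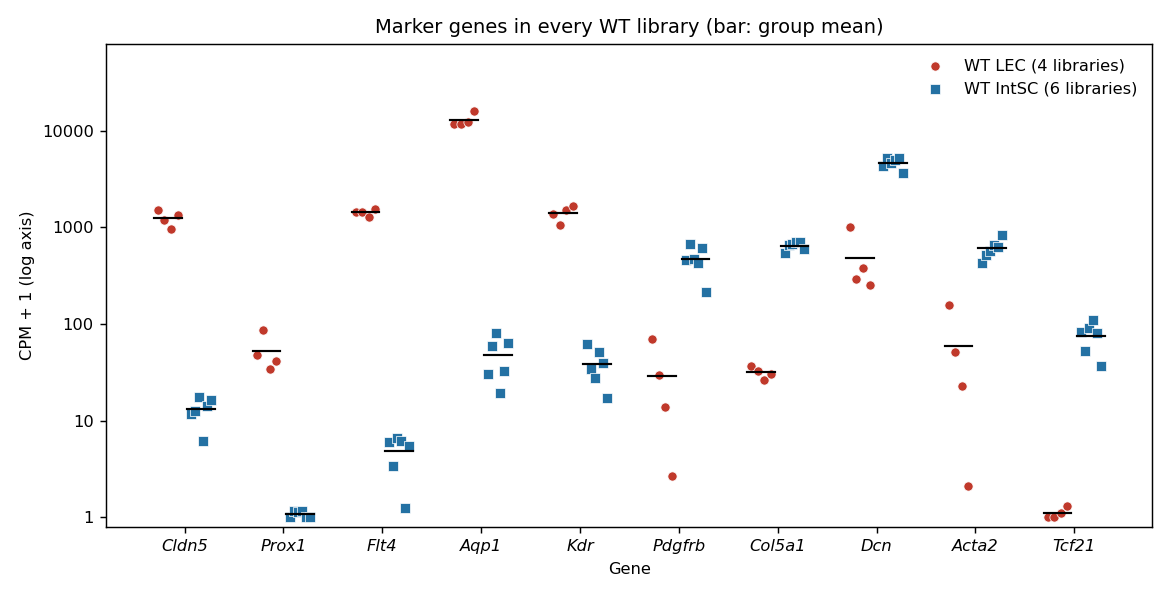
Level of the 6 check genes and of Kdr, Dcn, Acta2 and Tcf21 in each WT library, as CPM + 1 on a log axis, with 1 point per library (4 LEC, 6 IntSC) and a bar at the group mean. Cldn5, Prox1, Flt4, Aqp1 and Kdr lay above every IntSC library in all 4 LEC libraries, the other 5 lay below every IntSC library, and the LEC libraries spread widest for Pdgfrb and Acta2.

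Across all genes the contrast was wide. Of 12203 genes with enough reads to be tested by edgeR's quasi-likelihood test, 2763 (22.6%) passed an adjusted p of 0.05, of which 1260 (10.3%) were higher in LECs and 1503 (12.3%) higher in IntSCs. The 2 groups of libraries did not overlap for 2574 genes (21.1%), with all LEC libraries above all IntSC libraries for 1183 genes (9.69%) and below them for 1391 (11.4%). These shares are the background for the gene lists, together with the median log2 fold change of LECs over IntSCs of all genes tested, -0.04. Among the 4372 genes that reached a mean of 50 CPM in either cell type, 1851 (42.3%) passed. The 2 directions were unlike in size. The median log2 fold change was 1.92 among genes higher in LECs and -3.995 among genes higher in IntSCs, and 229 of the former and 748 of the latter exceeded 16-fold. For 459 of the 1503 genes higher in IntSCs, the 4 LEC libraries held 0 to 3 reads together. For 20 of the 1260 genes higher in LECs, the 6 IntSC libraries held that few. A fold of a gene with so few reads depends on the small count that the model adds, and is given as a ratio of CPM or as a lower bound instead. At the other end, the 95% interval of the log2 fold change lay within -1 and 1 for 1022 genes (8.37%).

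**Figure D2:**
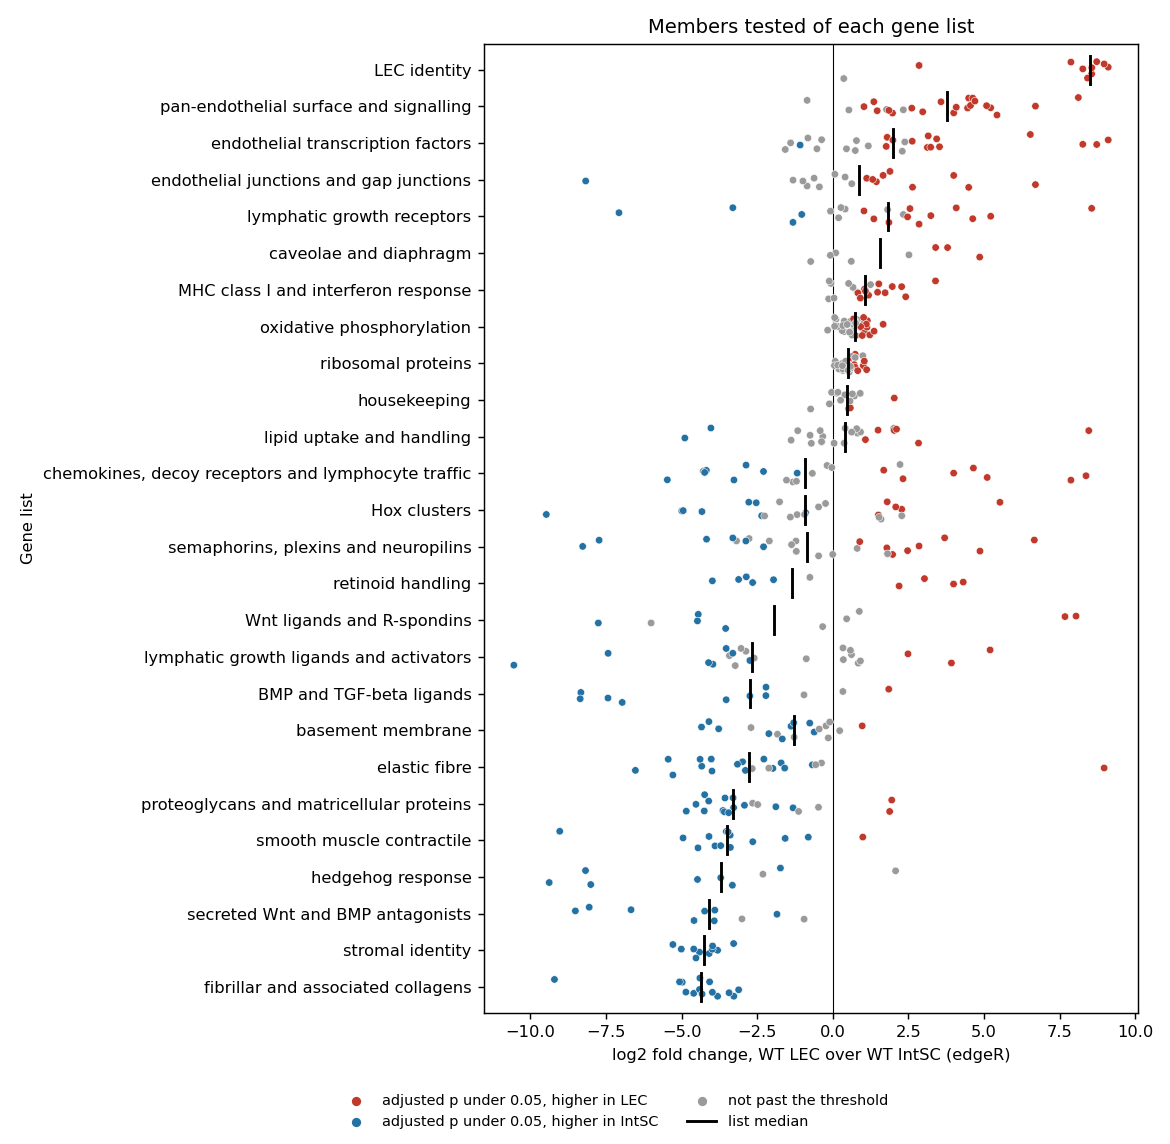
Log2 fold change of LECs over IntSCs for the members tested of selected gene lists, with 1 point per gene, red where higher in LECs and blue where higher in IntSCs at an adjusted p below 0.05, grey otherwise, and a bar at the list median. The medians of the LEC identity, lymphatic growth receptor and endothelial lists lay to the right of 0. Those of collagens, proteoglycans, contractile genes, antagonists and lymphatic growth ligands lay to the left. Points of genes with 0 to 3 reads in the lower group depend on the small count that the model adds.

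LECs carried the lymphatic programme. All 10 genes of the LEC identity list were tested, and 9 were higher in LECs (median 8.49). The tenth, Pdpn, was at 304, 289.8, 189 and 423 CPM in LECs and at 111, 240.3 and 354 CPM in IntSCs (log2 fold change 0.36 ± 0.30, edgeR adjusted p = 0.457). Podoplanin is part of the LEC gate, and its RNA was present at overlapping levels in stromal cells. Lyve1, the hyaluronan receptor of lymphatic capillaries, was at 1590.1, 1212, 2532 and 2195 CPM in LECs and at 0.509, 1.92 and 21.1 CPM in IntSCs (log2 fold change 8.42 ± 0.88, edgeR adjusted p = 8.30e-06). Reln, which encodes the secreted glycoprotein reelin, was at 1078, 1262, 1495 and 1315 CPM in LECs and at 0.209, 1.07 and 13.7 CPM in IntSCs (log2 fold change 8.56 ± 0.92, edgeR adjusted p = 1.21e-05). Tbx1, a T-box transcription factor, was at 169, 285, 182 and 178 CPM in LECs and at 0, 0.254 and 1.35 CPM in IntSCs (log2 fold change 8.72 ± 0.66, edgeR adjusted p = 2.10e-07). All 3 were seen in every LEC library at levels far above the highest IntSC library. In IntSCs the median gene of this list stood at 0.0234 to 0.781% of its LEC mean, depending on the library. The few IntSC reads of Lyve1, Reln and Mmrn1 lay mostly in WT IntSC 3, and those of Tbx1 in WT IntSC 2 and WT IntSC 3. Without WT IntSC 3 the log2 fold changes of Lyve1, Reln and Mmrn1 were 9.69, 10.01 and 9.89, and without WT IntSC 2 that of Tbx1 was 9.33.

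Among genes that averaged at least 50 CPM in LECs without overlap, the 12 with the highest log2 fold change were Slc39a4, Slc45a3, Adgrg3, Apba2, Lcn2, Prox1, Sh3gl3, Mmrn1, Tnfaip8l3, Mrc1, Cldn4 and Gmfg. Slc39a4, a zinc importer, was at 206, 53.4, 265 and 340.5 CPM in LECs and at 0, 0.254 and 0.664 CPM in IntSCs (log2 fold change 9.50 ± 0.69, edgeR adjusted p = 1.84e-07). It was lowest in WT LEC 2, which was still far above all 6 IntSC libraries. Adgrg3, an adhesion G protein-coupled receptor, was at 1575, 1379, 1509 and 1973 CPM in LECs and at 0.255, 2.30 and 7.18 CPM in IntSCs (log2 fold change 9.15 ± 0.66, edgeR adjusted p = 2.18e-07). Lcn2, the siderophore-binding lipocalin, was at 768, 475, 815 and 554 CPM in LECs and at 0.166, 0.896 and 3.19 CPM in IntSCs (log2 fold change 9.11 ± 0.58, edgeR adjusted p = 7.16e-08). Both had their highest IntSC value in WT IntSC 3. Mrc1, the mannose receptor, was at 139, 132, 156 and 216 CPM in LECs and at 0, 0.252 and 0.930 CPM in IntSCs (log2 fold change 8.77 ± 0.54, edgeR adjusted p = 2.34e-08). Cldn4, a claudin better known from epithelium, was at 42.2, 73.6, 54.3 and 165 CPM in LECs and at 0, 0.149 and 0.399 CPM in IntSCs (log2 fold change 8.75 ± 0.79, edgeR adjusted p = 1.03e-06). For Cldn4, WT LEC 4 was above the other 3 LEC libraries. For Prox1 the ratio of CPM was 643, with a 95% counting interval of 219.6 to 3119. The other 6, namely Slc45a3 (a transporter of the solute carrier family), Apba2 (an adaptor of the amyloid precursor protein), Sh3gl3 (an endophilin), Mmrn1 (multimerin, a secreted glycoprotein), Tnfaip8l3 (a phosphoinositide transfer protein) and Gmfg (an actin regulator), had log2 fold changes from 8.74 to 9.20. Leaving out WT IntSC 3 moved 7 of the 12 by more than 1.5 times, to log2 fold changes of 9.89 for Mmrn1 and, for Gmfg, Tnfaip8l3, Slc45a3, Lcn2, Sh3gl3 and Mrc1, of 11.55, 9.89, 10.05, 9.78, 9.60 and 9.39.

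The 10 most abundant transcripts of LECs were Rn45s, Aqp1, H2-K1, Tmsb4x, H2-D1, Timp3, Rplp1, Ccl21a, Gm1987 and Sdpr. Ccl21a, the chemokine that draws dendritic cells and T cells into lymphatic vessels, was at 4141, 2420.5, 5166 and 4919 CPM in LECs and at 11.2, 12.3 and 38.5 CPM in IntSCs (log2 fold change 7.87 ± 0.43, edgeR adjusted p = 1.47e-08). Gm1987 is a near-identical copy of Ccl21a, its counts followed those of Ccl21a in every library, and how reads were shared between the copies is uncertain. Timp3, an inhibitor of matrix metalloproteinases, was at 4258, 2789.9, 6625 and 6394 CPM in LECs and at 372, 538 and 643 CPM in IntSCs (log2 fold change 3.27 ± 0.25, edgeR adjusted p = 1.52e-07). Tmsb4x, which encodes the actin-binding peptide thymosin beta 4, was at 7007, 5771, 6065 and 4739.7 CPM in LECs and at 274, 1691 and 2022 CPM in IntSCs (log2 fold change 1.96 ± 0.38, edgeR adjusted p = 0.00171). In each of these genes all LEC libraries lay above all IntSC libraries, and WT IntSC 6 was the lowest for Tmsb4x.

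Genes shared by all endothelia were mostly higher in LECs. Of the 24 genes of the pan-endothelial list, 20 were higher in LECs and 0 higher in IntSCs (median 3.79). The 20 include Pecam1, which was part of the sort and is no finding. Kdr, which encodes VEGFR2, was at 1362, 1057, 1518 and 1674 CPM in LECs and at 16.1, 35.5 and 61.2 CPM in IntSCs (log2 fold change 5.22 ± 0.33, edgeR adjusted p = 2.99e-08). Mmrn2, a matrix protein of vessels, was at 991, 1187, 1266 and 1631 CPM in LECs and at 24.1, 36.3 and 52.9 CPM in IntSCs (log2 fold change 5.08 ± 0.25, edgeR adjusted p = 3.94e-09). Egfl7, a secreted endothelial factor, was at 2612, 2531, 2039.7 and 2538 CPM in LECs and at 92.0, 100.3 and 160.2 CPM in IntSCs (log2 fold change 4.46 ± 0.21, edgeR adjusted p = 3.06e-09). Cdh5, the cadherin of endothelial junctions, was at 132, 253, 272 and 272 CPM in LECs and at 0.332, 5.68 and 29.3 CPM in IntSCs (log2 fold change 4.49 ± 0.76, edgeR adjusted p = 0.000612, and 5.13 without WT IntSC 2). None of these 4 genes overlapped between the cell types. IntSC libraries were not free of this list, whose median gene stood at 5.95 to 9.51% of its LEC mean there. The 4 members that missed the threshold were Tek, Clec14a, Ptprb and Esam. Esam, an adhesion molecule of endothelium and platelets, was at 66.8, 93.7, 47.7 and 139 CPM in LECs and at 93.5, 164 and 193 CPM in IntSCs (log2 fold change -0.85 ± 0.31, edgeR adjusted p = 0.0591). Nos3, the endothelial nitric oxide synthase, was among those that passed, at 67.6, 41.5, 43.1 and 124 CPM in LECs and 11.5, 18.7 and 22.6 CPM in IntSCs (log2 fold change 1.97 ± 0.41, edgeR adjusted p = 0.00242).

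Of the 25 endothelial transcription factors tested, 13 were higher in LECs and 1, Klf4, was higher in IntSCs (median 1.98). Foxc2, which is required for lymphatic valves, was at 78.7, 34.8, 69.5 and 46.1 CPM in LECs and at 0, 0.689 and 0.894 CPM in IntSCs (log2 fold change 6.53 ± 0.71, edgeR adjusted p = 6.11e-06). Maf was at 403, 679, 542 and 543 CPM in LECs and at 35.5, 55.3 and 98.8 CPM in IntSCs (log2 fold change 3.15 ± 0.29, edgeR adjusted p = 1.03e-06). Nr2f2, known as COUP-TFII and needed for vein and lymphatic identity, was at 749, 1006, 783 and 1056 CPM in LECs and at 165, 227 and 293 CPM in IntSCs (log2 fold change 1.98 ± 0.21, edgeR adjusted p = 4.25e-06). Of these, Nr2f2 was also well represented in the stroma, and Foxc2 was close to 0 in all 6 IntSC libraries. The ETS family members Erg, Ets1 and Elk3 had log2 fold changes from 1.796 to 3.12 and were higher in LECs, as was Fli1 (3.53, a call lost without WT LEC 3 at 3.37 and without WT LEC 4 at 3.49), whereas Ets2 did not pass (0.74 ± 0.32, edgeR adjusted p = 0.113). Klf4 was at 253, 342, 255 and 188 CPM in LECs and at 439, 545 and 721 CPM in IntSCs (log2 fold change -1.08 ± 0.22, edgeR adjusted p = 0.00224). Sox17, an arterial factor, was at 0, 10.6, 0 and 13.6 CPM in LECs and at 5.07, 17.1 and 41.8 CPM in IntSCs and did not pass (edgeR adjusted p = 0.465).

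Junction genes differed by member, and most of those that passed were higher in LECs. Of 18 tested, 9 were higher in LECs and 1 higher in IntSCs (median 0.87). The 9 include Pecam1, which was part of the sort. Besides Cldn5 and Cdh5, F11r, which encodes the adhesion molecule JAM-A, was at 861, 647, 829 and 817 CPM in LECs and at 90.8, 129 and 163 CPM in IntSCs (log2 fold change 2.63 ± 0.20, edgeR adjusted p = 1.98e-07). Its relative Jam2 went the other way, with 2 reads in the LEC libraries and 0.507, 18.7 and 37.1 CPM in IntSCs (ratio of CPM 369, 95% counting interval 102 to 3057). The gap junction connexins Gja1 and Gja4 were higher in LECs (log2 fold changes 1.44 ± 0.26 and 1.32 ± 0.34, edgeR adjusted p = 0.000871 and 0.0109), the second only with WT LEC 4 included (0.89 without it). Tjp1, the scaffold ZO-1, was at 32.3, 36.1, 20.5 and 31.8 CPM in LECs and at 8.37, 30.6 and 43.8 CPM in IntSCs and did not pass (log2 fold change 0.07 ± 0.47, edgeR adjusted p = 0.947).

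Caveolae are membrane pits rich in caveolins and cavins. Among 8 genes with enough reads, 3 were higher in LECs, with 0 on the IntSC side (median 1.56). Sdpr, an older symbol of cavin 2, was at 4158, 4555, 3746 and 3212 CPM in LECs and at 94.7, 129 and 172 CPM in IntSCs (log2 fold change 4.86 ± 0.22, edgeR adjusted p = 3.06e-09). Cav1 was at 509.8, 342, 762 and 514 CPM in LECs and at 29.9, 33.2 and 67.3 CPM in IntSCs (log2 fold change 3.79 ± 0.29, edgeR adjusted p = 1.98e-07). Cav2 followed it (log2 fold change 3.40 ± 0.28, edgeR adjusted p = 3.22e-07). Ptrf, an older symbol of cavin 1, was at 1357, 1392, 1417 and 1622 CPM in LECs and at 872, 1210.5 and 2289 CPM in IntSCs (log2 fold change 0.09 ± 0.23, edgeR adjusted p = 0.841). Cavin 2 and both caveolins thus parted the cell types, and cavin 1 overlapped between them.

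Lacteals carry fat, and of 24 genes of lipid uptake and handling 6 were higher in LECs and 2 higher in IntSCs (median 0.39). Gpihbp1, which holds lipoprotein lipase on capillary endothelium, was at 409, 353, 468 and 392.1 CPM in LECs and at 0, 1.14 and 2.13 CPM in IntSCs (log2 fold change 8.46 ± 0.62, edgeR adjusted p = 2.51e-07). Fabp4, a fatty acid binding protein, was at 674, 606, 954 and 774 CPM in LECs and at 18.01, 119 and 150.4 CPM in IntSCs (log2 fold change 2.83 ± 0.41, edgeR adjusted p = 0.000172). Abca1, a cholesterol exporter, was at 72.3, 84.4, 154 and 79.5 CPM in LECs and at 22.8, 35.1 and 43.9 CPM in IntSCs (log2 fold change 1.495 ± 0.32, edgeR adjusted p = 0.00284). Plin2, a coat protein of lipid droplets, passed with all libraries (1.08 ± 0.32) and missed the threshold without WT LEC 3 (0.92) or WT IntSC 5 (0.98). Cd36, the fatty acid translocase, was at 37.4, 36.7, 72.2 and 8.58 CPM in LECs and at 0.332, 12.2 and 14.2 CPM in IntSCs and did not pass (log2 fold change 2.01 ± 0.76, edgeR adjusted p = 0.0719). Lrp1, a large endocytic receptor, was higher in IntSCs, at 94.7, 112, 27.5 and 29.3 CPM in LECs and 1615, 1928 and 2430.1 CPM in IntSCs (log2 fold change -4.90 ± 0.44, edgeR adjusted p = 1.36e-06). The other gene higher in IntSCs, Slc27a3, had a log2 fold change of -4.03 ± 1.02 and of -5.81 without WT LEC 1.

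Chemokine and traffic genes were divided, with 7 of 22 higher in LECs, 7 higher in IntSCs (median -0.93). The atypical receptors, which bind chemokines without signalling through G proteins, differed by member. Ackr2 was at 83.5, 97.8, 146 and 154 CPM in LECs and at 0, 0.105 and 1.46 CPM in IntSCs (log2 fold change 8.37 ± 0.81, edgeR adjusted p = 2.59e-06, and 10.05 without WT IntSC 3). Ackr3 was at 599, 350.4, 554 and 435 CPM in LECs and at 22.1, 28.7 and 40.4 CPM in IntSCs (log2 fold change 3.99 ± 0.26, edgeR adjusted p = 5.41e-08). Ackr4 was at 76.9, 45.8, 2.05 and 96.6 CPM in LECs and at 362, 991 and 1468 CPM in IntSCs (log2 fold change -4.18 ± 0.76, edgeR adjusted p = 0.00114). Ackr2 and Ackr3 were thus higher in every LEC library, and Ackr4, a scavenger of Ccl21, was lower in every LEC library. Spns2, the exporter of sphingosine 1-phosphate, was at 301, 182, 223 and 272 CPM in LECs and at 0.209, 7.37 and 13.1 CPM in IntSCs (log2 fold change 5.10 ± 0.61, edgeR adjusted p = 2.87e-05). Il7, a survival factor of lymphocytes, was at 56.3, 57.8, 112 and 42.2 CPM in LECs and at 0.166, 2.16 and 6.51 CPM in IntSCs (log2 fold change 4.65 ± 0.77, edgeR adjusted p = 0.0004). The stromal side held Ccl11 (log2 fold change -2.87 ± 0.55), Cxcl1 (-2.29 ± 0.57, and -2.99 without WT LEC 1) and Vcam1 (-4.24 ± 1.15). Vcam1, an adhesion molecule for leukocytes, was at 24.9, 0.120, 0 and 1.48 CPM in LECs and at 89.4, 120.4 and 158 CPM in IntSCs, its log2 fold change was -7.82 without WT LEC 1, and it missed the threshold without WT LEC 4 (-3.91).

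Genes of antigen presentation through MHC class I were higher in LECs or did not pass. Of the 20 genes of MHC class I and the interferon response, 12 were higher in LECs and 0 in IntSCs (median 1.06). Most of them were abundant, so the share of 42.3% among genes of at least 50 CPM is the nearer background. H2-K1 was at 10587, 5558, 11579 and 15809 CPM in LECs and at 2950.4, 3265 and 3681 CPM in IntSCs (log2 fold change 1.73 ± 0.22, edgeR adjusted p = 3.51e-05). The immunoproteasome subunit Psmb9 was at 195, 211, 243 and 183 CPM in LECs and at 13.6, 41.6 and 52.7 CPM in IntSCs (log2 fold change 2.41 ± 0.32, edgeR adjusted p = 4.37e-05). B2m, the light chain of all class I molecules, was at 3132, 2509, 3493 and 2676 CPM in LECs and at 1248, 1443 and 1712 CPM in IntSCs (log2 fold change 1.05 ± 0.17, edgeR adjusted p = 0.000307). All 3 were above the IntSC range in every LEC library. The class I genes are similar in sequence, and reads may have been shared among them. Leukocytes also carry class I molecules, and the leukocyte markers summed to 197.4 to 517.0 CPM in LECs against 38.1 to 109.5 CPM in IntSCs, whose part in these values was not tested. Stat2, Irf1 and Irf7, regulators of the interferon response, had log2 fold changes from -0.14 to -0.07 and did not pass.

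IntSCs carried the matrix. Of the 10 stromal identity genes all 10 were higher in IntSCs (median log2 fold change -4.25), as were all 14 of the fibrillar and associated collagens tested (median -4.36). The first list includes Pdgfrb, which was part of the sort and is no finding. Col1a1, the chain that defines type I collagen, was at 179.5, 81.8, 26.6 and 35.0 CPM in LECs and at 1486, 1986 and 2569 CPM in IntSCs (log2 fold change -4.601 ± 0.51, edgeR adjusted p = 1.44e-05). Col3a1 was at 282, 87.7, 80.5 and 113 CPM in LECs and at 1568, 2256 and 3054 CPM in IntSCs (log2 fold change -3.98 ± 0.39, edgeR adjusted p = 2.70e-06). Col6a3 was at 196, 61.4, 15.2 and 45.4 CPM in LECs and at 1231, 1459 and 2211 CPM in IntSCs (log2 fold change -4.32 ± 0.58, edgeR adjusted p = 8.34e-05). In all 3 the highest LEC library was WT LEC 1, and it too lay far below the lowest IntSC library. Without WT LEC 1 the log2 fold changes of these 3 genes were -5.36, -4.57 and -5.29. Col12a1 had 2 reads in the LEC libraries and 21.3, 37.3 and 54.7 CPM in IntSCs (ratio of CPM 785, 95% counting interval 217 to 6488). The median collagen stood at 12.2% of its IntSC mean in WT LEC 1 and at 2.74 to 3.89% in WT LEC 2 to 4, and the part of stromal RNA in the LEC libraries in these levels was not tested.

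The basement membrane, which both cell types help to build, was less one-sided. Of 18 genes, 9 were higher in IntSCs and 1 in LECs (median -1.29). The chain Col4a2 was at 95.02, 201, 179 and 217 CPM in LECs and at 352, 417 and 649 CPM in IntSCs (log2 fold change -1.38 ± 0.27, edgeR adjusted p = 0.00142). Its partner Col4a1 was at 439, 386, 365 and 462 CPM in LECs and at 528, 597 and 808 CPM in IntSCs (log2 fold change -0.62 ± 0.20, edgeR adjusted p = 0.0326), a call that was lost without WT LEC 1 (-0.65), without WT LEC 3 (-0.56), without WT IntSC 2 (-0.57) and without WT IntSC 5 (-0.63). Among laminin chains, Lama2 was at 41.5, 16.3, 24.8 and 0.888 CPM in LECs and at 194, 304 and 361 CPM in IntSCs (log2 fold change -3.78 ± 0.68, edgeR adjusted p = 0.00101). Lama4, the chain of vessel walls, was at 341, 464, 370.3 and 314 CPM in LECs and at 270.2, 273 and 495 CPM in IntSCs (log2 fold change 0.23 ± 0.22, edgeR adjusted p = 0.554). Lama2 was low in LECs and Lama4 overlapped. The gene higher in LECs was Agrn, the proteoglycan agrin, at 154, 299, 227 and 315 CPM in LECs and 100.3, 119 and 184 CPM in IntSCs (log2 fold change 0.97 ± 0.25, edgeR adjusted p = 0.0119).

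Of 20 elastic fibre genes, 15 were higher in IntSCs (median -2.78), and the 1 higher in LECs was Mmrn1, a multimerin placed on this list for its EMI domain family. Eln, elastin itself, was at 93.0, 124, 64.3 and 129 CPM in LECs and at 186, 347 and 782 CPM in IntSCs (log2 fold change -1.98 ± 0.40, edgeR adjusted p = 0.00237). Mfap4, a microfibril protein, was at 69.0, 33.1, 2.80 and 27.2 CPM in LECs and at 547, 596 and 1113 CPM in IntSCs (log2 fold change -4.39 ± 0.64, edgeR adjusted p = 0.000179, and -5.04 without WT LEC 1). Ltbp4, a binding protein of latent TGF-beta, was at 1275, 1923, 1548 and 1653 CPM in LECs and at 1798, 2097 and 2386 CPM in IntSCs and did not pass (log2 fold change -0.38 ± 0.17, edgeR adjusted p = 0.148). Elastin thus lay lower in every LEC library without being absent there. Of 20 proteoglycans and matricellular proteins, 14 were higher in IntSCs and 2 in LECs (median -3.29). Bgn, biglycan, was at 388, 236, 131 and 187 CPM in LECs and at 2332, 2692 and 3745 CPM in IntSCs (log2 fold change -3.63 ± 0.31, edgeR adjusted p = 6.11e-07). The 2 exceptions were Prelp, a leucine-rich repeat proteoglycan, at 471, 556, 623 and 710.2 CPM in LECs and 139, 156 and 198 CPM in IntSCs (log2 fold change 1.88 ± 0.19, edgeR adjusted p = 3.93e-06), and Thbs1, thrombospondin 1. Thbs1 was at 94.3, 209.6, 122 and 123 CPM in LECs and at 22.0, 36.4 and 50.3 CPM in IntSCs (log2 fold change 1.95 ± 0.30, edgeR adjusted p = 0.000226).

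Among the 10 most abundant transcripts of IntSCs were Rn45s, Clec3b, Malat1, Adamdec1, Mgp, Sparc, Dcn, Lars2 and Cd63. Clec3b, which encodes tetranectin, was at 504, 480.4, 217 and 241 CPM in LECs and at 10691, 11998 and 14466 CPM in IntSCs (log2 fold change -5.08 ± 0.30, edgeR adjusted p = 1.57e-08). Adamdec1, a protease of the ADAM family, was at 1546, 358, 216 and 238 CPM in LECs and at 8935, 10046 and 12885 CPM in IntSCs (log2 fold change -4.14 ± 0.54, edgeR adjusted p = 6.17e-05, and -5.26 without WT LEC 1). Both were low in LECs, with WT LEC 1 highest. Mgp, an inhibitor of calcification, was at 1286, 339, 532 and 796 CPM in LECs and at 3909, 10149 and 15102 CPM in IntSCs (log2 fold change -3.79 ± 0.45, edgeR adjusted p = 2.77e-05). Sparc was at 898, 382, 217 and 404 CPM in LECs and at 4279, 5709 and 7187 CPM in IntSCs (log2 fold change -3.59 ± 0.36, edgeR adjusted p = 3.58e-06), and Dcn, decorin, had a log2 fold change of -3.28 ± 0.37 with all libraries and of -3.93 without WT LEC 1.

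Several genes of IntSCs had almost no reads in the LEC libraries. By the rule used for LECs, the 12 with the lowest log2 fold change included Tcf21, Slit2, Pcdh9, Epb4.1l1, Tbx2, Gria3, Med12l, Grem1, Nkain4, Hk2 and Sox6. Tcf21, a transcription factor of visceral fibroblasts, was at 0, 0, 0.0934 and 0.296 CPM in LECs and at 35.4, 80.7 and 108 CPM in IntSCs (log2 fold change -9.33 ± 0.77, edgeR adjusted p = 3.82e-07, and -10.54 without WT LEC 4). Slit2, a guidance ligand of Robo receptors, was at 0.0941, 0.241, 0.187 and 0 CPM in LECs and at 64.8, 77.9 and 144 CPM in IntSCs (log2 fold change -9.31 ± 0.64, edgeR adjusted p = 6.87e-08). No LEC library held more than 3 reads of either gene. Tbx2, a T-box transcription factor, was at 0.753, 0, 0.280 and 0.197 CPM in LECs and at 104, 124 and 189.6 CPM in IntSCs (log2 fold change -8.63 ± 0.60, edgeR adjusted p = 7.72e-08, and -9.48 without WT LEC 1). Hk2, hexokinase 2, was at 0.0941, 0.963, 0.187 and 0 CPM in LECs and at 28.7, 53.3 and 76.2 CPM in IntSCs (log2 fold change -7.48 ± 0.86, edgeR adjusted p = 1.18e-05, and -8.99 without WT LEC 2). Grem1, a secreted antagonist of BMPs, was at 0.376, 0, 0.467 and 0 CPM in LECs and at 34.6, 61.5 and 94.9 CPM in IntSCs (log2 fold change -8.06 ± 0.83, edgeR adjusted p = 4.03e-06, and -8.70 without WT LEC 3). A further 6, among them the AMPA receptor subunit Gria3 and the transcription factor Sox6, had log2 fold changes from -8.92 to -7.47, that of Sox6 being -8.59 without WT LEC 1. These genes held at most 1.03 CPM in any LEC library, the value of Sox6 in WT LEC 1, where collagens stood at 12.2% of their IntSC level.

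Mesenchymal transcription factors were tested for 17 of 25 members, with 7 higher in IntSCs and 1 higher in LECs (median -1.51). Nkx2-3, a homeobox factor of gut mesoderm, was at 93.2, 11.7, 1.77 and 33.6 CPM in LECs and at 611, 745 and 815 CPM in IntSCs (log2 fold change -4.37 ± 0.77, edgeR adjusted p = 0.000861, and -5.53 without WT LEC 1). Zeb2 was at 33.3, 17.6, 4.95 and 4.83 CPM in LECs and at 423, 595 and 807 CPM in IntSCs (log2 fold change -5.33 ± 0.57, edgeR adjusted p = 9.08e-06, and -6.07 without WT LEC 1). Its relative Zeb1 was at 82.7, 67.6, 72.0 and 97.0 CPM in LECs and at 41.0, 57.1 and 108 CPM in IntSCs (log2 fold change 0.22 ± 0.32, edgeR adjusted p = 0.708). Zeb2 thus parted the cell types and Zeb1 overlapped. Snai2 had no read in the LEC libraries and 5.65, 19.1 and 29.9 CPM in IntSCs, at least 249-fold higher in IntSCs against a floor of 3 counts over the LEC libraries. Meox1, a homeobox factor of somites, was the exception, at 93.8, 72.4, 80.2 and 102 CPM in LECs and 0, 0.437 and 4.14 CPM in IntSCs (log2 fold change 6.13 ± 0.87, edgeR adjusted p = 0.000126, and 7.01 without WT IntSC 4).

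Smooth muscle was part of the IntSC libraries. Of 14 contractile genes, 13 were higher in IntSCs and 1, Smtn, in LECs (median -3.50). Myh11, smooth muscle myosin, was at 31.9, 40.2, 0.467 and 16.2 CPM in LECs and at 213, 383 and 479.7 CPM in IntSCs (log2 fold change -4.10 ± 0.75, edgeR adjusted p = 0.00123). Myl9, its regulatory light chain, was at 80.1, 19.3, 6.07 and 36.6 CPM in LECs and at 296, 374 and 439.6 CPM in IntSCs (log2 fold change -3.39 ± 0.54, edgeR adjusted p = 0.000372, and -4.17 without WT LEC 1). Acta2, smooth muscle actin, was at 158, 50.8, 21.7 and 1.08 CPM in LECs and at 431, 602 and 839.7 CPM in IntSCs (log2 fold change -3.39 ± 0.84, edgeR adjusted p = 0.00993). The LEC libraries were far apart for Acta2, whose log2 fold change was -4.63 without WT LEC 1 and whose call was lost without WT LEC 2 (-3.37). Synpo2, a Z-disc protein, had 1 read in the LEC libraries and 13.02, 20.02 and 31.2 CPM in IntSCs (ratio of CPM 852, 95% counting interval 152 to 33680, the 1 read being of WT LEC 1). Smtn, smoothelin, was at 131, 160.2, 99.5 and 178 CPM in LECs and at 56.7, 75.1 and 88.2 CPM in IntSCs (log2 fold change 0.99 ± 0.25, edgeR adjusted p = 0.0089). Of 10 pericyte markers, 6 were higher in IntSCs and 1 in LECs (median -3.43). Notch3 was at 7.06, 1.93, 0.560 and 1.78 CPM in LECs and at 105, 152 and 191 CPM in IntSCs (log2 fold change -5.69 ± 0.61, edgeR adjusted p = 5.77e-06, and -6.70 without WT LEC 1). Cspg4, which encodes NG2, was at 7.43, 0.241, 0.280 and 10.7 CPM in LECs and at 32.2, 69.2 and 85.1 CPM in IntSCs (log2 fold change -3.83 ± 0.89, edgeR adjusted p = 0.00669, and -4.63 without WT LEC 4). Kcnj8, a subunit of the ATP-sensitive potassium channel used as a pericyte marker, was the exception, at 57.7, 94.9, 135 and 127 CPM in LECs and 21.0, 36.1 and 46.9 CPM in IntSCs (log2 fold change 1.55 ± 0.33, edgeR adjusted p = 0.00333).

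Promoter windows of Kdr and Aqp1, 2 abundant genes of the endothelial side, and of Myl9, a contractile gene of the stromal side, are printed to show what sequence lies at the start of genes that part the cell types. They are RefSeq windows of 300 bases on GRCm38.p6 (mm10), from 250 bases before to 50 bases after the transcript start. They run 5′ to 3′ on the strand of the gene, in lower case with motif matches in capitals. The motifs searched on both strands were GGAAG, the core bound by ETS factors such as Erg and Fli1, in Kdr and Aqp1, and the CArG box, bound by serum response factor, in Myl9.
Kdr, chr5:75978406-75978705, - strand: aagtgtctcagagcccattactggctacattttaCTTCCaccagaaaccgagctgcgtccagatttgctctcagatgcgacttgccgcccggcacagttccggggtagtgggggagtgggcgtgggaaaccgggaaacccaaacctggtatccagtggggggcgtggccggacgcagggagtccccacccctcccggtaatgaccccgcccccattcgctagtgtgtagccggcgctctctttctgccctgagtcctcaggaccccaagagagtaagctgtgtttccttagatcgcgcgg
Aqp1, chr6:55336049-55336348, + strand: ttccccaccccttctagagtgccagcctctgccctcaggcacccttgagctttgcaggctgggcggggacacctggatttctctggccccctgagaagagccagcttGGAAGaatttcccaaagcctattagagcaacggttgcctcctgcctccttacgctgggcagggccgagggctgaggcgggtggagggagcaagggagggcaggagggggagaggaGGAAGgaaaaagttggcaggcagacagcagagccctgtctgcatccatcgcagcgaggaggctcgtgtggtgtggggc
Myl9, chr2:156775214-156775513, + strand: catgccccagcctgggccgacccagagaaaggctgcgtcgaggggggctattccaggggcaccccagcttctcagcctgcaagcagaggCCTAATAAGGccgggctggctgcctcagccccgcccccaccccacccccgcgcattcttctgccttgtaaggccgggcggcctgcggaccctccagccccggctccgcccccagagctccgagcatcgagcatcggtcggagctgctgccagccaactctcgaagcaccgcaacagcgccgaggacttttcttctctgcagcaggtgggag
The Kdr window holds 1 match of the ETS core, on the reverse strand, and the Aqp1 window holds 2 on the forward strand. The Myl9 window holds 1 CArG box. Of the 16 windows of 13 pan-endothelial genes with an entry, 13 (81.2%) hold the ETS core and 0 the CArG box, against 75.1% and 1.37% of 11862 windows of all genes tested. Of the 12 windows of 11 contractile genes with an entry, 6 hold the ETS core and 1 (8.33%) the CArG box. The ETS core is thus about as frequent in windows of any gene, and a match is a description of the sequence, not a site of binding.

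Secreted antagonists and morphogens were mostly higher in IntSCs. Of 10 secreted antagonists of Wnts and BMPs, 8 were higher in IntSCs and 0 in LECs (median -4.08). Sfrp1 was at 259, 41.1, 63.0 and 50.9 CPM in LECs and at 1141, 1585 and 1875 CPM in IntSCs (log2 fold change -3.90 ± 0.50, edgeR adjusted p = 5.42e-05, and -4.91 without WT LEC 1). Dkk2 was at 23.2, 0.361, 0.187 and 0 CPM in LECs and at 102, 154 and 159 CPM in IntSCs (log2 fold change -4.59 ± 1.21, edgeR adjusted p = 0.0143), and its LEC reads were nearly all those of WT LEC 1, without which the log2 fold change was -9.57. Of 11 BMP and TGF-beta ligands, 8 were higher in IntSCs and 1, Tgfb3, in LECs (median -2.74). Bmp4 was at 103, 14.1, 39.0 and 20.1 CPM in LECs and at 177, 285 and 421 CPM in IntSCs (log2 fold change -2.74 ± 0.51, edgeR adjusted p = 0.00137, and -3.60 without WT LEC 1). Bmp5 had 3 reads in the LEC libraries, in WT LEC 2 and WT LEC 3, and 16.7, 32.3 and 43.8 CPM in IntSCs (ratio of CPM 417, 95% counting interval 142 to 2024). Both BMPs were low in every LEC library. Tgfb3 was at 136, 179.9, 164 and 224 CPM in LECs and at 37.2, 46.7 and 66.8 CPM in IntSCs (log2 fold change 1.85 ± 0.25, edgeR adjusted p = 6.47e-05).

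Hedgehog proteins are made by the gut epithelium and are received by the mesenchyme. Of 9 genes of the hedgehog response, 7 were higher in IntSCs and 0 in LECs (median -3.71). Gli1, the target and effector of the pathway, was at 14.5, 0.241, 10.3 and 32.3 CPM in LECs and at 177, 293 and 458 CPM in IntSCs (log2 fold change -4.48 ± 0.78, edgeR adjusted p = 0.000787, and -5.25 without WT LEC 4). Gli2 had 1 read in the LEC libraries, in WT LEC 2, and 18.01, 29.0 and 37.2 CPM in IntSCs (ratio of CPM 1147, 95% counting interval 205 to 45339). Boc, a co-receptor, had 2 reads in the LEC libraries and 9.55, 17.2 and 29.9 CPM in IntSCs (ratio of CPM 369, 95% counting interval 102 to 3057). Cdon, the related co-receptor, was at 9.50, 14.9, 6.16 and 10.2 CPM in LECs and at 0, 0 and 12.8 CPM in IntSCs and did not pass (log2 fold change 2.07 ± 1.69, edgeR adjusted p = 0.45). The patched receptor Ptch1 did not pass either, at 2.82, 0, 5.04 and 0 CPM in LECs and 1.02, 10.6 and 16.3 CPM in IntSCs (log2 fold change -2.31 ± 1.51, edgeR adjusted p = 0.328).

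Of 14 complement genes, 6 were higher in IntSCs and 1 in LECs, and 7 did not pass (median -0.90). C3, the central component, was at 277, 149, 223 and 197 CPM in LECs and at 923, 1240.1 and 1469 CPM in IntSCs (log2 fold change -2.52 ± 0.24, edgeR adjusted p = 1.91e-06). C4b was at 181, 57.0, 55.2 and 88.5 CPM in LECs and at 1147, 1291 and 1517 CPM in IntSCs (log2 fold change -3.77 ± 0.34, edgeR adjusted p = 1.03e-06). Serping1, the inhibitor of the C1 proteases, was at 569.6, 508, 709 and 849.7 CPM in LECs and at 1038, 1425 and 1634 CPM in IntSCs (log2 fold change -1.05 ± 0.21, edgeR adjusted p = 0.00186). All 3 were lower in every LEC library without being absent there. C3 and C4b were highest in WT LEC 1, the LEC library with the most stromal transcripts, and Serping1 in WT LEC 4. The part of stromal RNA in these LEC levels was not tested. C2, the gene higher in LECs, was at a log2 fold change of 1.57 ± 0.43 (adjusted p = 0.0151 in edgeR), and its call was lost without WT LEC 3 (1.39). Prostaglandin synthesis followed, with 5 of 8 genes higher in IntSCs and 0 in LECs (median -3.05). Ptgs1, cyclooxygenase 1, was at 4.33, 0.241, 3.08 and 0.0986 CPM in LECs and at 26.5, 58.4 and 87.2 CPM in IntSCs (log2 fold change -4.87 ± 0.86, edgeR adjusted p = 0.000694, and -5.61 without WT LEC 1). Of the marker genes that the study names for its fibroblast subsets, 12 of 13 were higher in IntSCs and 0 in LECs (median -4.18), on a list that is not independent of the study's own stromal cells. Pdgfra, the marker of the fibroblast lineage on it, was at 16.9, 0.843, 5.70 and 22.98 CPM in LECs and at 206, 403 and 522 CPM in IntSCs (log2 fold change -5.01 ± 0.69, edgeR adjusted p = 0.000106).

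Immediate early genes, which tissue dissociation is known to switch on, also differed. Of 18 tested, 9 were higher in IntSCs and 1, Klf6, in LECs (median -1.17). Egr1 was at 372, 332, 309 and 308 CPM in LECs and at 900.3, 1967 and 2479 CPM in IntSCs (log2 fold change -2.52 ± 0.26, edgeR adjusted p = 4.25e-06). Jun was at 602, 807, 563 and 412 CPM in LECs and at 1699, 2107 and 3020.1 CPM in IntSCs (log2 fold change -1.88 ± 0.24, edgeR adjusted p = 2.84e-05). Both were lower in every LEC library. Dusp1 and Ier2, of the same list, were at overlapping levels (log2 fold changes 0.13 ± 0.22 and -0.02 ± 0.31, edgeR adjusted p = 0.745 and 0.979). The part of the dissociation in these differences was not tested.

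The lymphatic growth factor system was divided between the cell types by role. Among 21 receptors and co-receptors, 11 were higher in LECs and 4 in IntSCs (median 1.81), and among 22 ligands and activators 3 were higher in LECs and 7 in IntSCs (median -2.67). Flt4 has 2 ligands, and neither passed the threshold. Vegfc was at 0, 3.25, 0.0934 and 0.197 CPM in LECs and at 0.628, 10.1 and 14.3 CPM in IntSCs (log2 fold change -3.42 ± 1.57, edgeR adjusted p = 0.144). Figf, an older symbol of Vegfd, was at 4.23, 4.58, 0 and 6.90 CPM in LECs and at 9.47, 18.5 and 50.4 CPM in IntSCs (log2 fold change -2.60 ± 1.01, edgeR adjusted p = 0.0812). Vegfc was low in all 10 libraries, the 95% intervals ran from -6.76 to -0.08 for Vegfc and from -4.76 to -0.44 for Figf, and no Figf value of LECs reached the IntSC range. Vegfa, the ligand of VEGFR2, was at 8.84, 1.204, 0.280 and 0.592 CPM in LECs and at 29.2, 45.0 and 54.2 CPM in IntSCs (log2 fold change -3.97 ± 0.86, edgeR adjusted p = 0.00353, and -5.95 without WT LEC 1). With Kdr higher in LECs, Vegfa and Kdr were called in opposite directions. Svep1, an extracellular protein needed for lymphatic development, was at 7.62, 15.4, 9.53 and 16.8 CPM in LECs and at 156, 211 and 257 CPM in IntSCs (log2 fold change -4.11 ± 0.32, edgeR adjusted p = 1.94e-07). Angpt2, a ligand of the Tie receptors, was higher in LECs, at 50.5, 169.9, 116 and 162 CPM against 0.797, 2.47 and 7.75 CPM in IntSCs (log2 fold change 5.20 ± 0.61, edgeR adjusted p = 1.37e-05). Its receptor Tek was at 46.5, 59.6, 22.6 and 45.5 CPM in LECs and at 0, 8.28 and 17.1 CPM in IntSCs and did not pass (log2 fold change 2.33 ± 0.86, edgeR adjusted p = 0.0646). Calcrl, the receptor of adrenomedullin, and its partner Ramp2 were higher in LECs (log2 fold changes 1.03 ± 0.28 and 1.85 ± 0.23, edgeR adjusted p = 0.0138 and 2.01e-05). The ligand Adm was at 77.0, 73.5, 64.6 and 75.4 CPM in LECs and at 32.5, 37.9 and 76.4 CPM in IntSCs (log2 fold change 0.58 ± 0.33, edgeR adjusted p = 0.249). Hgf had no read in the 4 LEC libraries and 0, 12.2 and 102 CPM in IntSCs, at least 294-fold higher against the same floor. Most of its reads were of WT IntSC 2, without which the bound was 102.8-fold, and WT IntSC 4 was at 0 as well.

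In 28 ligand and receptor pairs, the partners were set side by side, and 22 pairs had both genes tested. Pdgfb encodes the ligand by which endothelium recruits mural cells, and it was at 14.8, 33.8, 71.3 and 52.0 CPM in LECs and at 1.86, 6.73 and 18.1 CPM in IntSCs (log2 fold change 2.48 ± 0.66, edgeR adjusted p = 0.0133), a call that was lost without WT LEC 3 (2.13). Gas6 was at 2118, 2464, 2302 and 3097 CPM in LECs and at 170.2, 951 and 1162 CPM in IntSCs (log2 fold change 1.53 ± 0.37, edgeR adjusted p = 0.00833). Its receptor Axl was at 65.7, 12.3, 7.47 and 22.5 CPM in LECs and at 375, 427 and 503 CPM in IntSCs (log2 fold change -4.02 ± 0.53, edgeR adjusted p = 6.62e-05, and -4.95 without WT LEC 1). Gas6 was thus higher in LECs and Axl in IntSCs, while Gas6 was also abundant in IntSCs. Sema3a, a repulsive guidance ligand, was at 66.5, 86.7, 20.3 and 33.9 CPM in LECs and at 0, 0.250 and 1.53 CPM in IntSCs (log2 fold change 6.66 ± 0.86, edgeR adjusted p = 3.73e-05, and 7.47 without WT IntSC 5). Its receptor Nrp1 was at 34.2, 34.2, 26.2 and 0.493 CPM in LECs and at 182, 224 and 312 CPM in IntSCs (log2 fold change -3.31 ± 0.70, edgeR adjusted p = 0.00331). The neuropilins were split, since Nrp2, the co-receptor of VEGFR3, was at 918, 1010.3, 764 and 985 CPM in LECs and at 89.6, 135 and 158 CPM in IntSCs (log2 fold change 2.85 ± 0.22, edgeR adjusted p = 1.98e-07).

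In other pairs both partners lay on the same side. In the Notch system both partners of 1 pair were higher in LECs, with Dll4 at 37.3, 64.3, 149 and 179.8 CPM against 0.332, 7.61 and 15.4 CPM in IntSCs (log2 fold change 3.92 ± 0.81, edgeR adjusted p = 0.00293). Notch1 was at 233, 187, 106 and 230.2 CPM against 5.41, 20.9 and 31.6 CPM (log2 fold change 3.24 ± 0.42, edgeR adjusted p = 3.34e-05). In the IGF system both were higher in IntSCs, with Igf1 at 89.1, 35.5, 28.2 and 0.690 CPM in LECs against 248, 388 and 481 CPM in IntSCs (log2 fold change -3.31 ± 0.77, edgeR adjusted p = 0.0064, and -4.15 without WT LEC 1). Igf1r, at a mean of 106 CPM in LECs and 264 CPM in IntSCs, was present in both (log2 fold change -1.32 ± 0.30, edgeR adjusted p = 0.00438). Cxcl12 was at 204, 104, 54.0 and 135 CPM in LECs and at 127, 202 and 242 CPM in IntSCs and did not pass (log2 fold change -0.68 ± 0.31, edgeR adjusted p = 0.147), whereas its scavenger Ackr3 was higher in LECs. Il33, an alarmin of endothelium and stroma, was at 351, 465, 492 and 403 CPM in LECs and at 79.3, 149 and 178 CPM in IntSCs (log2 fold change 1.68 ± 0.25, edgeR adjusted p = 0.000126), and its receptor Il1rl1 had too few reads to be tested, as had Kit, Cxcr4, Lgr5, Tgfb1 and Apln.

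**Figure D3:**
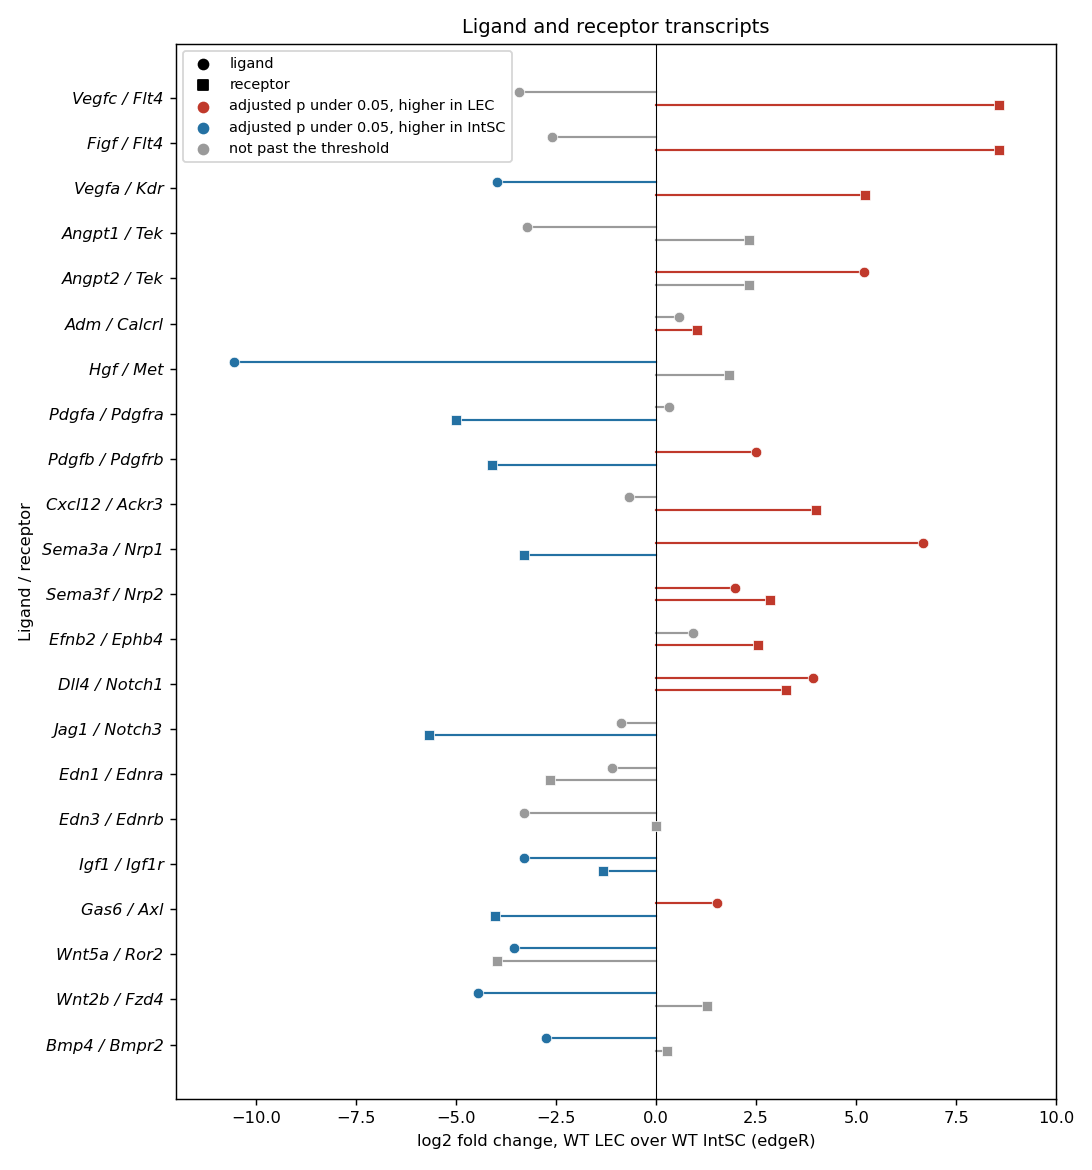
Log2 fold change of LECs over IntSCs of the ligand (circle) and the receptor (square) of the 22 pairs with both genes tested, coloured red where higher in LECs, blue where higher in IntSCs at an adjusted p below 0.05, and grey otherwise. Vegfa lay on the IntSC side with Kdr on the LEC side. Gas6 and Sema3a lay on the LEC side with their receptors on the IntSC side. Pdgfb lay on the LEC side, and the place of its receptor Pdgfrb was set by the sort. The value of Hgf depends on the small count that the model adds to its 0 LEC reads.

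Several gene families were divided between the cell types member by member. Of 10 Wnt ligands and R-spondins, 2 were higher in LECs and 4 in IntSCs (median -1.94). Wnt2 was at 314, 328, 279.9 and 298 CPM in LECs and at 0.127, 1.15 and 3.19 CPM in IntSCs (log2 fold change 7.68 ± 0.62, edgeR adjusted p = 6.76e-07). Wnt9b was at 25.4, 26.7, 27.1 and 14.01 CPM in LECs and at 0, 0 and 0.399 CPM in IntSCs, with 3 reads in the 6 IntSC libraries (ratio of CPM 301, 95% counting interval 103 to 1459.9, all 3 reads being of WT IntSC 3). Wnt2b was at 25.8, 5.18, 1.87 and 0 CPM in LECs and at 133, 192 and 218 CPM in IntSCs (log2 fold change -4.45 ± 0.95, edgeR adjusted p = 0.00359, and -6.28 without WT LEC 1). Wnt4 was at 0, 0.241, 0.467 and 0 CPM in LECs and at 19.1, 32.4 and 86.9 CPM in IntSCs (log2 fold change -7.75 ± 1.03, edgeR adjusted p = 4.74e-05, and -8.88 without WT LEC 3). Wnt2 and Wnt2b, although named alike, thus lay on opposite sides, each in every library. Rspo3, an R-spondin, which strengthens Wnt signals, was at 51.6, 70.9, 102 and 55.5 CPM in LECs and at 9.005, 40.8 and 59.1 CPM in IntSCs and did not pass (log2 fold change 0.87 ± 0.45, edgeR adjusted p = 0.195).

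Retinoic acid is made from vitamin A in the gut wall, and genes of its handling were divided between the cell types. Of 10 genes, 4 were higher in LECs and 5 in IntSCs (median -1.36). The synthesising enzymes lay in IntSCs, with Aldh1a1 at 61.7, 63.8, 88.8 and 30.5 CPM in LECs and 181, 241 and 294 CPM in IntSCs (log2 fold change -1.96 ± 0.29, edgeR adjusted p = 0.000158) and Aldh1a3 at 23.1, 5.42, 17.5 and 12.5 CPM in LECs and 176, 234 and 285 CPM in IntSCs (log2 fold change -3.98 ± 0.38, edgeR adjusted p = 1.80e-06). Cyp26b1, which degrades retinoic acid, was at 708, 1004, 1014 and 1213 CPM in LECs and at 41.9, 65.1 and 74.3 CPM in IntSCs (log2 fold change 3.99 ± 0.23, edgeR adjusted p = 1.40e-08). Dhrs3, which turns retinaldehyde back to retinol, was at 244, 211, 432 and 458 CPM in LECs and at 5.31, 15.1 and 37.5 CPM in IntSCs (log2 fold change 4.31 ± 0.46, edgeR adjusted p = 7.69e-06). The receptor Rarb, itself a retinoic acid target, was at 46.9, 54.4, 105 and 75.7 CPM in LECs and at 2.93, 6.96 and 15.5 CPM in IntSCs (log2 fold change 3.03 ± 0.50, edgeR adjusted p = 0.000371). Aldh1a1 and Aldh1a3 were thus lower, and Cyp26b1, Dhrs3 and Rarb higher, in every LEC library. Aldh1a2 was called higher in IntSCs as well, a call that was lost without WT LEC 3 (log2 fold change -2.86 ± 0.72, and -2.75 without it).

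Among the Hox genes, which record position along the body axis, 5 of 23 were higher in LECs and 8 in IntSCs (median -0.94). The 5 tested genes of the Hoxc cluster were all higher in IntSCs. Hoxc6 was at 11.4, 4.94, 0.280 and 2.76 CPM in LECs and at 97.3, 154 and 188 CPM in IntSCs (log2 fold change -4.95 ± 0.70, edgeR adjusted p = 0.000126, and -5.83 without WT LEC 1). Hoxc9 had no read in LECs and 5.73, 11.5 and 17.1 CPM in IntSCs, at least 149-fold higher against the floor. Of the 4 tested genes of the Hoxd cluster, 3 were higher in LECs. Hoxd9 was at 37.7, 30.2, 75.7 and 80.2 CPM in LECs and at 0, 0.314 and 3.59 CPM in IntSCs (log2 fold change 5.52 ± 1.10, edgeR adjusted p = 0.00213, and 6.24 without WT IntSC 3). Hoxd8 was at 93.5, 158, 135 and 134 CPM in LECs and at 23.9, 40.0 and 43.4 CPM in IntSCs (log2 fold change 1.797 ± 0.27, edgeR adjusted p = 0.000175), and Hoxd3 did not pass (2.28 ± 0.96, edgeR adjusted p = 0.113). The Hoxa and Hoxb clusters held calls in both directions, such as Hoxa7 in LECs (log2 fold change 1.51 ± 0.34, edgeR adjusted p = 0.00428) and Hoxb4 in IntSCs (log2 fold change -2.53 ± 0.28, edgeR adjusted p = 8.66e-06).

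Semaphorins, plexins and neuropilins guide axons and vessels, and among 24 members with enough reads 8 lay higher in LECs, 6 in IntSCs (median -0.84). Besides Sema3a, Sema3d was at 138, 180.2, 143 and 177 CPM in LECs and at 0.169, 5.45 and 9.93 CPM in IntSCs (log2 fold change 4.86 ± 0.65, edgeR adjusted p = 7.78e-05). Sema6a was at 133, 213, 177 and 115 CPM in LECs and at 3.32, 12.8 and 24.3 CPM in IntSCs (log2 fold change 3.70 ± 0.45, edgeR adjusted p = 2.01e-05). Sema5a was higher in IntSCs, at 0.188, 13.2, 4.11 and 9.37 CPM in LECs and 84.4, 112 and 196 CPM in IntSCs (log2 fold change -4.18 ± 0.74, edgeR adjusted p = 0.000866). Phosphodiesterases, which break down cyclic nucleotides, had 2 of 13 members higher in LECs and 7 in IntSCs (median -3.65). Pde2a was at 1254, 1600.2, 2045 and 2142 CPM in LECs and at 33.8, 49.1 and 87.3 CPM in IntSCs (log2 fold change 5.05 ± 0.28, edgeR adjusted p = 8.06e-09). Pde1a was at 22.5, 0.361, 0.467 and 0.0986 CPM in LECs and at 86.8, 128 and 181 CPM in IntSCs (log2 fold change -4.45 ± 1.12, edgeR adjusted p = 0.0108, and -8.63 without WT LEC 1). In the Notch list, with 3 of 15 higher in LECs and 1 in IntSCs, Lfng, which tunes Notch receptors with sugars, was at 272, 386, 306 and 367 CPM in LECs and at 0.497, 2.94 and 11.3 CPM in IntSCs (log2 fold change 6.10 ± 0.68, edgeR adjusted p = 1.39e-05), and Notch3 was the stromal member. Of 16 integrin genes, 2 were higher in LECs, Itga6 and Itga9, and 3 in IntSCs. Itga9, a receptor of lymphatic valves, was at 186, 275, 260.3 and 315 CPM in LECs and at 31.5, 46.7 and 58.9 CPM in IntSCs (log2 fold change 2.47 ± 0.25, edgeR adjusted p = 2.70e-06). Itgb1, the common beta chain, was at 508, 455, 625 and 602 CPM in LECs and at 426, 479 and 706 CPM in IntSCs (log2 fold change 0.10 ± 0.20, edgeR adjusted p = 0.784). Matrix proteases and their inhibitors had 3 of 24 members higher in LECs and 9 in IntSCs (median -1.85), with Mmp2 at 50.1, 19.1, 7.10 and 42.0 CPM in LECs and 274, 359.9 and 456 CPM in IntSCs (log2 fold change -3.65 ± 0.46, edgeR adjusted p = 3.55e-05).

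**Figure D4:**
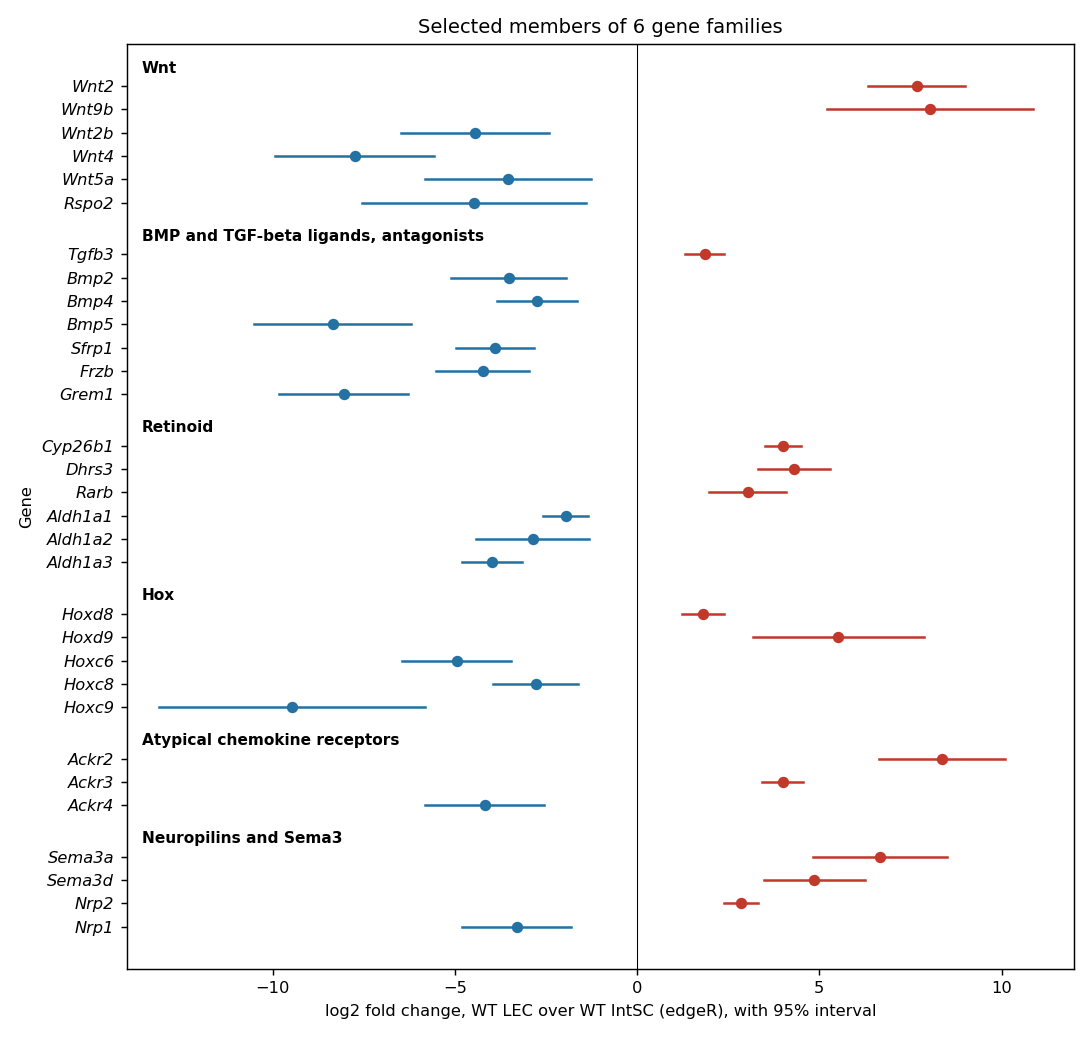
Log2 fold change of LECs over IntSCs with its 95% interval for selected members of 6 gene families, 1 line per gene, red where higher in LECs and blue where higher in IntSCs at an adjusted p below 0.05. Wnt2 and Wnt9b, Tgfb3, Cyp26b1, Dhrs3 and Rarb, Hoxd8 and Hoxd9, Ackr2 and Ackr3, and Sema3a, Sema3d and Nrp2 lay on the LEC side, and the other members of each family shown lay on the IntSC side.

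The Hippo pathway, the subject of the study, leaned as a list to neither cell type in these control mice. Of 19 genes, 2 were higher in LECs and 2 in IntSCs (median -0.10), where 22.6% of all genes tested were called. Lats2 was at 142, 126, 110.2 and 71.1 CPM in LECs and at 41.3, 66.5 and 111 CPM in IntSCs (log2 fold change 0.65 ± 0.30, edgeR adjusted p = 0.141). Yap1, the effector held back by the Lats kinases, was at 63.5, 130.3, 104 and 112 CPM in LECs and at 101, 129 and 202 CPM in IntSCs (log2 fold change -0.41 ± 0.27, edgeR adjusted p = 0.323). The YAP targets Ctgf and Cyr61 did not pass, with log2 fold changes of 1.39 ± 0.52 and 0.26 ± 0.41 and with intervals of 0.28 to 2.50 and -0.63 to 1.15. Of the 4 called genes, Crim1, a transmembrane regulator of BMPs, was at 138, 223, 210.1 and 261 CPM in LECs and at 58.8, 104 and 133 CPM in IntSCs (log2 fold change 1.05 ± 0.26, edgeR adjusted p = 0.00888), and Axl was the larger of the 2 on the stromal side.

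Most genes of the cell's basic machinery did not pass, and the list members that did were higher in LECs. The 8 abundant genes with the narrowest intervals around 0 were Rplp1, Actb, Timp2, Ahnak, Sec61a1, Ncl, Kif1c and Bri3. Timp2, another inhibitor of metalloproteinases, was at 1618, 1787, 1961 and 2318 CPM in LECs and at 1629, 1686 and 2201 CPM in IntSCs (log2 fold change 0.10 ± 0.17, 95% interval -0.26 to 0.47), in contrast with Timp3, which was higher in LECs. Actb was at 4123, 2878, 2747 and 3774 CPM in LECs and at 2691, 3041 and 3697 CPM in IntSCs (log2 fold change 0.13 ± 0.17, 95% interval -0.24 to 0.50). Both overlapped between the cell types. Of 14 housekeeping genes, 2 were higher in LECs and 0 in IntSCs (median 0.46), the larger being Ppia, cyclophilin A (log2 fold change 2.03 ± 0.24, edgeR adjusted p = 1.25e-05). Of 35 genes of oxidative phosphorylation, 13 were higher in LECs and 0 in IntSCs (median 0.74), and of 36 ribosomal protein genes 8 and 0 (median 0.50). Over all genes tested 22.6% were called, and 42.3% of those of at least 50 CPM, a share that none of these lists exceeded. Atp5b, a subunit of ATP synthase, was at 276, 208, 236 and 381 CPM in LECs and at 93.4, 108 and 117 CPM in IntSCs (log2 fold change 1.36 ± 0.21, edgeR adjusted p = 0.000238). The counts of both lists moved with the scaling and with single libraries, between 8 and 17 genes for oxidative phosphorylation and between 2 and 15 for ribosomal proteins. Pseudogene copies of ribosomal protein genes may have shared reads. The proliferation list had 1 of 13 genes higher in LECs, Mcm6 (log2 fold change 2.30 ± 0.59, edgeR adjusted p = 0.011), and 0 in IntSCs.

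Markers of further cell types were checked in both groups. The 14 blood endothelial markers had 2 higher in LECs (Gpihbp1 and Cd300lg) and 2 higher in IntSCs (Cd34 and Ly6c1), with summed levels of 829.6 to 1131 CPM in LECs and 1392 to 2889 CPM in IntSCs. Cd34, which fibroblasts of the gut also express, was at 283, 178, 83.1 and 76.3 CPM in LECs and at 1027, 1673 and 2593 CPM in IntSCs (log2 fold change -3.44 ± 0.41, edgeR adjusted p = 2.48e-05), and Ly6c1 had a log2 fold change of -2.23 ± 0.45, or of -3.13 without WT LEC 1. The IntSC sum lay above the LEC sum in every library and was mostly Cd34, while Vwf, Sele and Ackr1 stayed at or below 25.4 CPM in all 10 libraries. Some transcripts of red cells, leukocytes and epithelium were higher in LECs. The 4 globin genes all passed, and their near-identical copies share reads. Of these, Hbb-bt lost its call without WT LEC 1 (log2 fold change 3.56). Together with Alas2, which had too few reads to be tested, they summed to 217.5 to 537.5 CPM in LECs and 3.85 to 59.2 CPM in IntSCs. Of 12 leukocyte markers, 5 were tested, with Cd74 and H2-Aa, the MHC class II genes, higher in LECs and summed levels of 197.4 to 517.0 CPM in LECs and 38.1 to 109.5 CPM in IntSCs. H2-Aa was at 314, 131, 281 and 354 CPM in LECs and at 0.166, 9.68 and 15.8 CPM in IntSCs (log2 fold change 5.04 ± 0.73, edgeR adjusted p = 0.000159), and Ptprc, which encodes CD45, had too few reads to be tested. The median log2 fold change of the 5 was -0.72. Of 16 epithelial markers, 4 were tested and 2, Fabp1 and Apoa1, were higher in LECs. The summed level of the epithelial list overlapped, at 78.4 to 470.5 CPM in LECs and 0.676 to 140.9 CPM in IntSCs. Epcam and Cdh1 had too few reads to be tested, and their highest levels were 0.188 and 0.654 CPM in LECs and 19.3 and 70.6 CPM in IntSCs. Apoa1 was at 60.5, 100, 239.6 and 46.4 CPM in LECs and at 0.507, 9.34 and 16.1 CPM in IntSCs (log2 fold change 3.66 ± 0.65, edgeR adjusted p = 0.000876, and 2.96 without WT LEC 3, where it was highest). The call of Fabp1 (3.53 ± 1.04) was lost without WT LEC 2 (3.46) or WT LEC 3 (2.54). The part of such cells or of free RNA in the LEC values was not tested. The 4 glial and neuronal markers and the 2 markers of interstitial cells of Cajal that were tested passed in neither direction, and no mesothelial or adipocyte marker had enough reads to be tested.

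**Figure D5:**
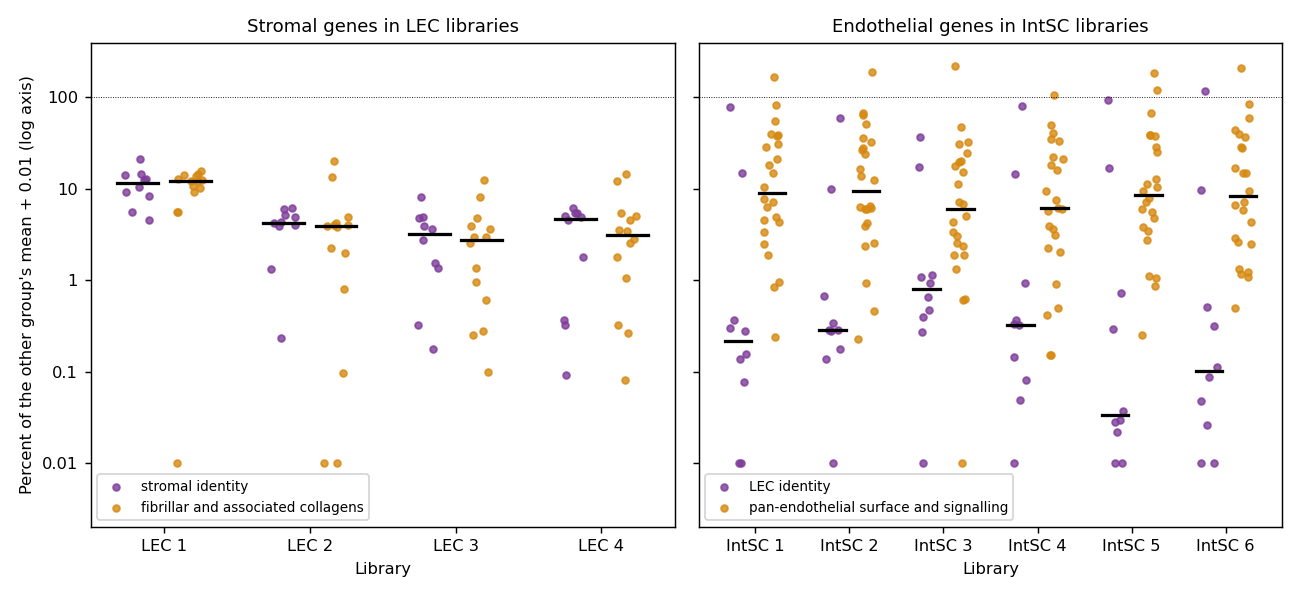
Level of stromal genes in each LEC library (left) and of endothelial genes in each IntSC library (right), as a percent of the gene's mean in the other cell type plus 0.01, on a log axis, with 1 point per gene, a bar at the median and a dotted line at 100%. WT LEC 1 lay at 11.5% for stromal identity genes, above the 3.17 to 4.69% of the other LEC libraries, and LEC identity genes lay at 0.0234 to 0.781% in the IntSC libraries.

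The contrast was repeated in the KO libraries, 3 LEC and 5 IntSC, which came from mice of the other genotype. There 3302 of 12758 genes (25.9%) passed the threshold. Of the 2763 WT calls, 2684 could be tested in KO mice, 2553 of them (95.1%) had the same direction, and 1650 also passed there. In the opposite direction 4 passed, among them Ap1s2, Erp29 and Igfbp5, which were named after their values were seen. Of these, the WT call of Ap1s2 was lost without WT LEC 1 or 4 or WT IntSC 1, 2, 4, 5 or 6 (log2 fold changes of -1.63 to -1.26), that of Igfbp5 without any 1 LEC library or WT IntSC 2, 5 or 6 (-0.73 to -0.62), and that of Erp29 without WT LEC 3 (-0.82) or 4 (-0.83). The difference between the contrasts in WT and KO mice passed for 108 of the 2763 genes, against 238 of 14015 genes tested for it (1.7%). Among the genes described here, Vegfc was higher in IntSCs of KO mice (edgeR adjusted p = 0.00023), at 62.7 ± 33.8 CPM there (SD, n = 5) with no read in any KO LEC library. The KO contrast of Vegfc lay below the WT contrast (edgeR adjusted p = 0.039), a difference whose size depends on the prior count because of those libraries without reads. Kdr had a log2 fold change of 4.08 in KO mice and Cyp26b1 one of 2.32 (edgeR adjusted p = 1.33e-05 and 0.00498), and for neither did the contrasts differ beyond the threshold (adjusted p = 0.211 and 0.089 in edgeR).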

How the data were processed

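Small intestinal LECs and IntSCs were profiled by QuantSeq 3′ end RNA sequencing, 1 library per file. The authors deposited raw read counts per gene symbol, not normalized. The submitters' notes name Bowtie2, edgeR and mm10, whereas the study's methods name TopHat and Cufflinks, and the counter, annotation and versions are not given in the sources used here. A 3′ tag measures the transcript end, so counts do not scale with transcript length, and near-identical copies can share reads.

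The 10 libraries labelled WT were grouped by title. Genes passing filterByExpr were fitted with edgeR 4.0.16 in R 4.3.3 (TMM factors, robust quasi-likelihood test, Benjamini-Hochberg adjustment, threshold 0.05, log2 fold change LEC over IntSC). CPM is the deposited count per 1000000 reads of the library's TMM-scaled total, set within each genotype, and served for levels. Where the lower group held 1 to 3 reads, a ratio of CPM with an exact 95% counting interval is given, and with 0 reads a bound at 3 counts over the group. Such intervals and bounds cover counting error only. The 6 check genes and 3 library measures were tested by two-sided exact permutation of the labels, for the genes on log2(CPM + 1), adjusted over 56 tests that also held the summed level of each list, for which no p is given. The study's legends count mice per group, pooled from independent experiments, but which library came from which mouse or experiment is not given in the sources used here. No experiment term could be fitted, and p-values measure the spread between these libraries, which may be partly technical. The code was tested on simulated counts. Alternatives were DESeq2 1.42.0, limma-voom (limma 3.58.1), other scaling factors and filters, thinning, a replicate block and leaving out single libraries.

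The contrast, the gene lists and the naming rule were chosen with earlier results of these data known. Named were the check genes, the 12 genes with the highest fold in each direction among those of at least 50 CPM without overlap, the 10 most abundant in each group, the 8 abundant genes with the narrowest intervals around 0, up to 5 called members per list and direction with those against the list's majority, and 28 ligand and receptor pairs. Further members, among them Erg, Fli1, Foxc2, Gja1, Gja4, Nos3, Snai2, Il7, Psmb9, Hoxc9, Lama2, Col12a1, Boc, Synpo2, Atp5b and those given as not passing, were named after their values were seen. A few genes that the rule picks are not reported here. Promoters came from RefSeq tables of GRCm38.p6.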

Additional observations from a re-analysis of the deposited data

Results flagged for a closer look

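Over 231 genes named here, 458 sets of CPM values, the 4 LEC or the 6 IntSC libraries of 1 gene, were screened for a library whose gap to the nearest other was large against the range of its group (Dixon's 95% limit). The limit was passed 54 times (11.8%), 28 in LECs and 26 in IntSCs. It is set to flag about 1 in 20 groups of independent, normal values. CPM values are skewed, a group with reads in only 1 library always passes, and genes of 1 library are not independent. The share is therefore a description, with no chance rate to set it against. WT LEC 1 was the highest LEC library for 15 genes. Those called higher in IntSCs were Adamdec1 (1546 CPM), Cd63 (2162 CPM), Col3a1 (282 CPM), Dcn (1005 CPM), Dkk2 (23.2 CPM), Ly6c1 (56.7 CPM), Pde1a (22.5 CPM), Sfrp1 (259 CPM), Sox6 (1.03 CPM), Synpo2 (0.0941 CPM), Vcam1 (24.9 CPM) and Vegfa (8.84 CPM), and the remaining ones were Apln (5.36 CPM), Cxcr4 (1.51 CPM) and Vwf (10.3 CPM). WT LEC 2 was the highest for 8, with levels in CPM of Ackr1 (5.18), Ets1 (199), Gli2 (0.120), Hoxd3 (65.5), Kit (9.51), Sele (7.59), Tbx1 (285) and Vegfc (3.25). WT LEC 3 was the highest for Abca1 (154) and Ier2 (315) CPM. The lowest values were those of Cdh5 in WT LEC 1 (132 CPM), Egfl7 in WT LEC 3 (2039.7 CPM) and Wnt9b in WT LEC 4 (14.01 CPM). WT IntSC 3 was the highest IntSC library for 10 genes, among them the lymphatic genes Ccl21a, Gm1987, Lyve1 and Reln, with levels in CPM of Ackr2 (1.46), Ccl21a (38.5), Gm1987 (38.5), Gmfg (1.59), Hoxd3 (43.7), Lyve1 (21.1), Reln (13.7), Slc45a3 (4.25), Tnfaip8l3 (0.797) and Wnt9b (0.399). Ccl21a and Gm1987 are near-identical copies and gave the same value. In the other IntSC libraries the highest values were Kit in WT IntSC 1 (0.149 CPM), Hgf in WT IntSC 2 (102 CPM), Itgb1 in WT IntSC 2 (706 CPM), Sele in WT IntSC 2 (14.9 CPM), Yap1 in WT IntSC 2 (202 CPM), Sema5a in WT IntSC 4 (196 CPM), Cav1 in WT IntSC 5 (67.3 CPM), Lgr5 in WT IntSC 5 (2.04 CPM), Cdon in WT IntSC 6 (12.8 CPM), Lama4 in WT IntSC 6 (495 CPM), Lars2 in WT IntSC 6 (8797 CPM), Mfap4 in WT IntSC 6 (1113 CPM) and Ptrf in WT IntSC 6 (2289 CPM), and the lowest were Dkk2 in WT IntSC 2 (102 CPM), Gas6 in WT IntSC 6 (170.2 CPM) and Tmsb4x in WT IntSC 6 (274 CPM).

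The LEC to IntSC contrast differed between WT and KO mice for 24 of the 231 named genes (edgeR interaction, adjusted p under 0.05). Over all genes tested it differed for 238 of 14015 (1.7%). Ap1s2, Erp29 and Igfbp5 were named after their opposite calls in KO mice were seen, so the count of 24 is a description. A positive value is a higher WT contrast. Of the genes higher in IntSCs, the log2 difference was Pdgfra (4.77), Gli1 (5.33), Svep1 (5.78), Lama2 (5.65), Zeb2 (4.601), Sema5a (4.55), Col3a1 (2.17) and C3 (2.99). The mean level of Pdgfra was 11.6 CPM in WT LECs and 0.424 CPM in KO LECs, that of Zeb2 was 15.2 and 0.484 CPM, and that of C3 was 212 and 20.8 CPM, with CPM scaled within each genotype, and the difference within LECs alone was not tested. The opposite was seen for Epb4.1l1 (-6.79), Tbx2 (-5.48), Tcf21 (-4.46) and Nkain4 (-3.78), whose mean levels in WT LECs were 0.0973 (Tcf21) to 0.308 (Tbx2) CPM. Stromal genes without a called difference also varied between LECs of the genotypes. The WT and KO LEC means were 30.5 and 8.19 CPM for Col5a1, 235 and 108 CPM for Bgn, and 14.6 and 23.7 CPM for Aldh1a3. Stromal RNA in KO LEC libraries was not measured as a share, and its part in these differences was not tested. Sox17 (9.92) and Vegfc (8.45) had no read in any KO LEC library, and their values are no estimate of a fold. Positive differences were also found for Pdgfb (6.46), Ctgf (5.36), Ackr3 (1.73), Crim1 (1.73), Prelp (2.00), Thbs1 (2.25) and Dusp1 (1.26). The mean level of Ctgf, a target of YAP and TAZ, in IntSCs was 133 (WT) and 835 (KO) CPM, against 348 and 52.9 CPM in LECs. Negative differences were found for Ap1s2 (-3.24), Erp29 (-1.61) and Igfbp5 (-2.55).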

How the results depend on the processing

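No call between WT LECs and WT IntSCs changed direction under any alternative. Depth limits what can be said of genes with few reads. By counting error alone, a transcript with no read in the 4 LEC libraries may lie at up to 0.0754 CPM (3 counts over the group). A transcript with none in the 6 IntSC libraries may lie at up to 0.0773 CPM. Libraries also differed beyond counting error. Of the genes tested, 1363 had no read in at least 1 LEC library and at least 10 CPM in another. The same was seen for 1032 genes among IntSC libraries. A level can therefore lie above these limits. The 2763 calls became 3327 with DESeq2, 3652 with limma-voom, 2745 with RLE and 2710 with upper-quartile factors, 2526 without a filter beyond 1 read, 2939 with all 4 groups in 1 fit and 2700 with every library thinned to the smallest total. Of the main calls, 98.7% were kept by DESeq2. Over all genes tested, the median moved from -0.04 (log2) to -0.28 with limma-voom, -0.15 with upper-quartile and -0.11 with RLE factors, where the share of calls higher in LECs was 39.6%, 40.1% and 41.8% against 45.6%. Leaving out 1 library gave 2233 (without WT IntSC 1) to 2889 (without WT LEC 2) calls, with 1007 to 1246 higher in LECs and 1194 to 1643 higher in IntSCs, and kept 76.7 to 87.5% of the main calls. Without WT IntSC 5 and 6 together, 934 genes were higher in IntSCs in place of 1503, and 967 were higher in LECs; the cause was not tested, and this fit holds fewer libraries. The share of WT calls with the same direction in KO mice ranged from 93.7 to 95.1% with single KO libraries left out, lowest without KO LEC 2, and was 95.1% without the filter. Of the 9 exact tests of single genes and library measures, all 9 passed with a pseudocount of 0.1 or 5, and 7 or 8 passed with 1 library left out, the total count or the number of genes with a read no longer passing. Of 278 called genes named by the rule or the text, limma-voom moved the fold of 79 by over 1.5 times and lost the call of 5, and leaving out WT LEC 1 moved 46 and lost 22.

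The replicate numbers were not taken to pair the libraries, since whether same-numbered libraries share a mouse is not given. Deviations from the group means of a LEC and an IntSC library with the same number correlated at 0.0189 to 0.0407 across genes, none of them over 0.1, and 3 of 4 LEC libraries correlated best with their own number, while WT LEC 3 correlated best with WT IntSC 5 (0.0532). With the replicate block, 1596 genes passed, 776 higher in LECs and 820 higher in IntSCs, and 55.7% of the main calls were kept, while of the 278 named calls 57 were lost and 53 moved by over 1.5 times. The mean was 0.0291 over the 4 same-numbered pairs and -0.00581 over the 20 others. The main p-values take no account of such pairing. The summed level of 5 sex-linked genes was 503 and 1401 CPM in WT LEC 1 and 2 against 60.4 and 84.2 CPM in WT LEC 3 and 4. Likewise it was 1453 and 1357 CPM in WT IntSC 1 and 2 against 92.0 to 157.5 CPM in WT IntSC 3 to 6. The list joins Xist with Y-linked genes, so its sum does not give the sex of a library. The study used mice of both sexes. With Xist as a covariate 2758 genes passed. The fit with the block spends residual degrees of freedom on the block and on IntSC 5 and 6, which have no partner.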
